A study of Mus musculus with 4 samples.

Results

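This account covers the 8 mouse genes of the St8sia family and of NCAM, which are St8sia1 to St8sia6, Ncam1 and Ncam2, in NSCL61-sox11 and NSCL61 cells. All probe sets that the array's annotation assigns to 1 of these genes alone were taken, 23 of 45037 non-control probe sets. The family was picked from earlier results of this same comparison, above all the low St8sia4 values of NSCL61-sox11. The values of the 8 genes are therefore given as a description, without p-values.

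NSCL61-sox11 and NSCL61 are p53-/- neural stem cell lines from C57BL/6 mice, prepared from telencephalon at embryonic day 14.5, and the labels describe both as like glioma-initiating cells. NSCL61-sox11 in addition expresses sox11. The cells grew as floating spheres without serum, with bFGF, PDGF and forskolin among the additives. Each line is represented by 2 arrays (Affymetrix M430_2). NSCL61-sox11 is 1 derivative line and the labels do not say whether it is 1 clone, how the Sox11 gene was driven, or whether each array stands for its own culture. Per the submitters, NSCL61-sox11 no longer formed tumours in animals, and they compared the lines to find the genes that differ. Values are log2 levels of 1 probe set, a group of short probes for 1 transcript region. Each probe set has its own affinity, so levels are compared between lines and not between probe sets.

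Polysialic acid is a long chain of sialic acids that is attached mostly to NCAM, the neural cell adhesion molecule encoded by Ncam1. The chain is large and negatively charged, weakens adhesion between cells, and is known from migrating neuroblasts and growing axons of the developing brain. It is made by 2 Golgi enzymes, ST8SIA2 and ST8SIA4. The other members of the family add single or few sialic acids to gangliosides or to glycans of proteins.

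The 2 polysialyltransferase genes gave different values in this comparison, so their promoters are shown first. They are the 250 bases before the annotated start in RefSeq's GRCm38.p6, 5′ to 3′ on the gene's strand (minus in both), at chr1:95667595-95667844 for St8sia4 and chr7:74013683-74013932 for St8sia2. Capitals mark GC boxes (GGGCGG, or CCGCCC on the other strand) and a CCAAT box (CCAAT, or ATTGG on the other strand).
St8sia4 promoter: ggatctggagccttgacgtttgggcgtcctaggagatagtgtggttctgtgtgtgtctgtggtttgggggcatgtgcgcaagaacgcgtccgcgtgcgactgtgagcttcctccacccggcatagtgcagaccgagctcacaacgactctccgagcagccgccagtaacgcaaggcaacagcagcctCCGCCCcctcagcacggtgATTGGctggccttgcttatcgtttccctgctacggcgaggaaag
St8sia2 promoter: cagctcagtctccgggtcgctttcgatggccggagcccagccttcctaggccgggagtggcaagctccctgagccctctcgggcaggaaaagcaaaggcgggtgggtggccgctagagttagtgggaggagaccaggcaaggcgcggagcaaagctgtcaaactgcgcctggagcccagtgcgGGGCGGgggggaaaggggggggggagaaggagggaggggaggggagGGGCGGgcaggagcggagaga
The St8sia4 window holds 1 GC box and 1 CCAAT box, and the St8sia2 window holds 2 GC boxes and no CCAAT box. Of all 32851 promoter windows of this length in the table, 32.7% hold a GC box and 33.8% a CCAAT box. The SOX-type letters ACAAAG and ACAAT, searched on both strands, are in neither of these windows, and are in 16.5% and 27.7% of all windows. The G and C content was 60.4% for St8sia4 and 68.8% for St8sia2, and the median of all windows was 52.4%. The St8sia4 window has 19 CpG dinucleotides and the St8sia2 window 15, and the median of all windows is 6. The table holds promoters of 5 of the 8 genes. Those of St8sia1, St8sia6 and Ncam2 hold no ACAAAG, and that of St8sia1 holds ACAAT at 1 place. The motif matches describe letters in these windows and say nothing about binding.

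Sox11 itself, the gene that NSCL61-sox11 was made to express, was higher in that line. On its probe set with the highest mean level, 1431225_at, it had 7.74 and 7.97 in NSCL61-sox11, against 5.09 and 4.82 in NSCL61. The log2 difference was 2.90 (SE 0.14, limma adjusted p = 0.00013). Both NSCL61 levels lay below 5.15, the level filter described below, so this probe set passed it only through NSCL61-sox11. The other Sox11 probe sets were also higher, with differences from 0.38 on 1453002_at to 2.80 on 1436790_a_at, so the size of the rise is uncertain. Among 27022 probe sets tested in all, 17.3% were called at an adjusted p under 0.05, with 2429 higher and 2249 lower in NSCL61-sox11. This balance depended on the scale: it was 558 higher and 1995 lower with arrays scaled to poly-A spike-in controls, and 1242 and 4656 with hybridisation controls. The median log2 difference of all tested probe sets was -0.02 on the deposited scale, -0.42 with poly-A scaling and -0.24 with hybridisation control scaling. Directions below are relative to the deposited scale.

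Of the 23 probe sets, 10 passed the filter on level, which kept the brightest 60% of probe sets (mean over the 4 arrays of 5.15 or more). They belong to St8sia4, St8sia2, St8sia3, St8sia5 and Ncam1. The other 13 include all probe sets of St8sia1, St8sia6 and Ncam2. Of the 10 tested, 4 were called and all 4 were lower in NSCL61-sox11, where 8.32% of all tested probe sets were called lower and 8.99% higher. These 4 are both probe sets of St8sia4 and 2 of Ncam1. As the comparison was in view when the genes were chosen, nothing is read from this count.

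**Figure D1:**
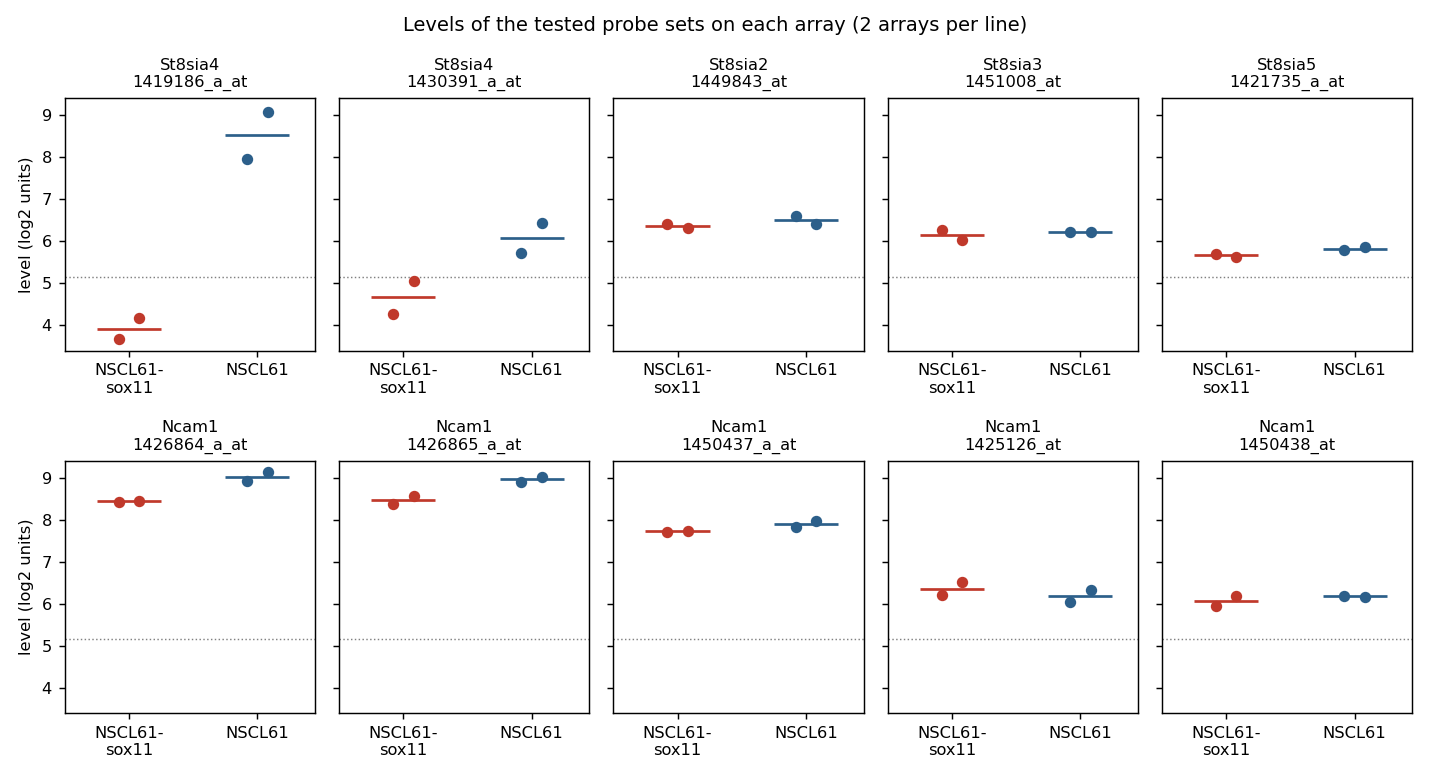
Level (log2 units) of the 10 tested probe sets on each array. Points are arrays, 2 for NSCL61-sox11 (left, red) and 2 for NSCL61 (right, blue), horizontal lines are means, and the dotted line is the level filter, 5.15. Both St8sia4 probe sets lie below that line in NSCL61-sox11 and above it in NSCL61, while St8sia2, St8sia3 and St8sia5 differ by less than 0.2 between the lines.

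St8sia4, the polysialyltransferase that in the mouse is the main one of the postnatal brain, was lower in NSCL61-sox11 on both of its probe sets. On 1419186_a_at it had 3.66 and 4.17 in NSCL61-sox11, against 7.95 and 9.08 in NSCL61. The lines did not overlap, and the higher array of NSCL61-sox11 lay far below the lower array of NSCL61. The log2 difference was -4.60 (SE 0.36), or 24.3-fold lower by the measured values. Like the other probe set of the gene, it passed the filter only through NSCL61, and its NSCL61-sox11 levels lay below 5.15. The arrays of NSCL61 also differed from each other, so the size of this fold also depends on them: it was 35.9-fold without NSCL61 array 1 and 16.4-fold without NSCL61 array 2. On both lines array 2 gave the higher value. In an array of bulk cells, fewer cells that carry a transcript and less transcript per cell cannot be told apart.

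The other St8sia4 probe set, 1430391_a_at, had 4.27 and 5.05 in NSCL61-sox11, against 5.71 and 6.43 in NSCL61. The lines again did not overlap, with a log2 difference of -1.41 (SE 0.32), 2.65-fold lower. Its mean level of 5.36 was just above the filter. Its call was lost without NSCL61 array 2, where the difference was -1.05. Leaving out 1 array at a time, the difference ran from -1.80 to -1.02. The mean of both probe sets gave a log2 difference of -3.00 (SE 0.35) for the gene. The names of both end in _a_at, which Affymetrix gives to probe sets that recognise several transcripts of the same gene. In NSCL61-sox11 the levels on both lay in the range of probe sets below the filter, so the size of either fold is uncertain.

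St8sia2, the polysialyltransferase that in the mouse predominates in the embryonic brain, showed no difference of this size. On 1449843_at it had 6.42 and 6.31 in NSCL61-sox11, against 6.59 and 6.41 in NSCL61. The lines overlapped, with a log2 difference of -0.14 (SE 0.11) that was not called. On 1420377_at, whose mean of 4.74 lay below the filter, the values were 4.60 and 4.80 in NSCL61-sox11, against 4.85 and 4.69 in NSCL61. That log2 difference was -0.07 (SE 0.13, fit of all probe sets). The annotation gives both St8sia2 probe sets the same source sequence, so they are not separate evidence. As folds, the St8sia2 differences are 1.10-fold and 1.05-fold lower. With poly-A scaling, the log2 difference was -5.01 for St8sia4 on 1419186_a_at and -0.54 for St8sia2 on 1449843_at. The median of all tested probe sets with that scaling was -0.42.

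**Figure D2:**
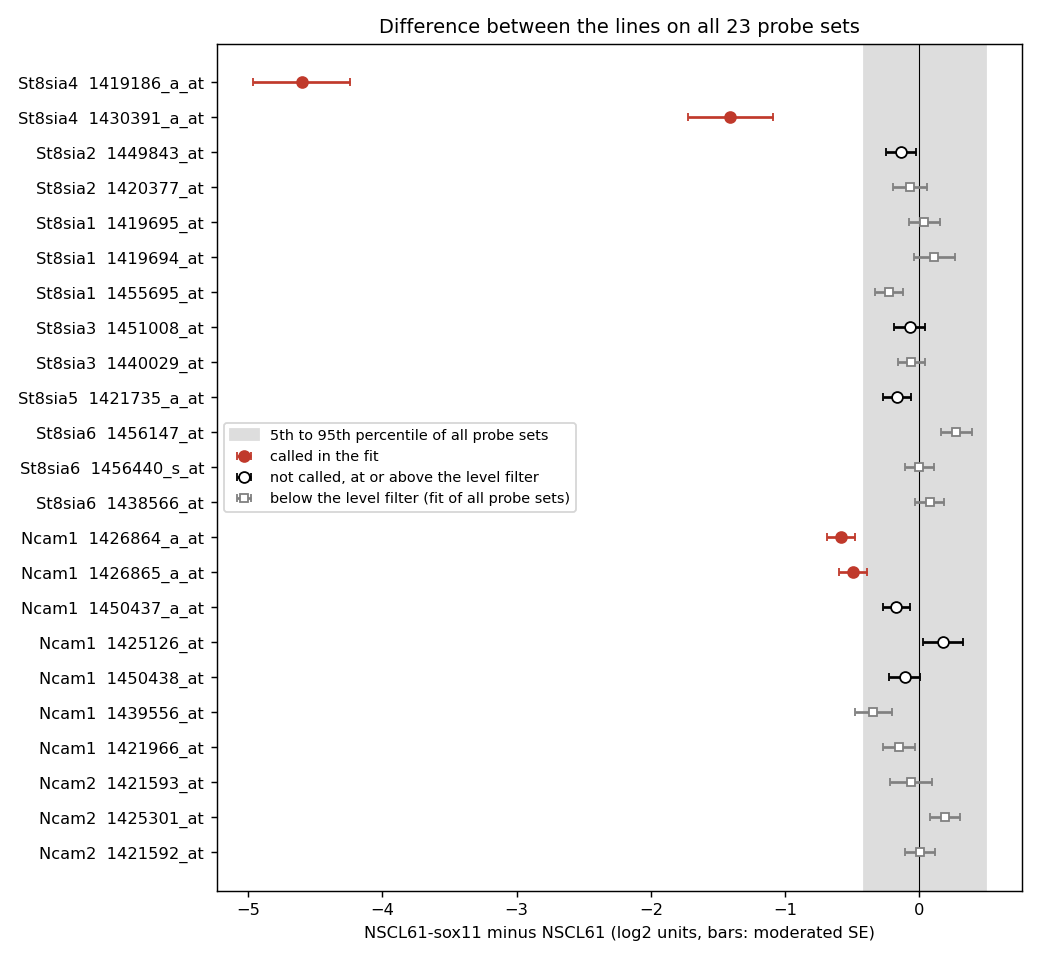
Difference between the lines, NSCL61-sox11 minus NSCL61 in log2 units, for all 23 probe sets. Bars are the moderated SE of limma, filled red points were called, open circles were tested and not called, grey squares lie below the filter on level and come from a fit of all probe sets. The grey band holds the middle of all 45037 probe sets, from the 5th percentile of -0.41 to the 95th of 0.50; the St8sia4 probe sets and 2 of Ncam1 lie to its left and the other 19 within it.

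The St8sia enzymes that act on gangliosides and glycans did not separate the lines in the way St8sia4 did. St8sia5, which lengthens the sialic acid part of gangliosides, had 5.70 and 5.61 in NSCL61-sox11, against 5.79 and 5.86 in NSCL61, on its only probe set, 1421735_a_at. Its arrays did not overlap, but the log2 difference of -0.17 (SE 0.10) was not called. St8sia3, which makes short sialic acid chains in the brain, had 6.26 and 6.04 in NSCL61-sox11, against 6.21 and 6.22 in NSCL61, on 1451008_at. Its arrays overlapped, and the difference was -0.07 (SE 0.11). Its other probe set, 1440029_at, had 3.74 and 3.68 in NSCL61-sox11, against 3.74 and 3.79 in NSCL61.

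St8sia1, which makes the first of the disialo-gangliosides, stayed between 3.30 and 4.07 on the 4 arrays and 3 probe sets. Its differences ran from -0.22 to 0.11. The most negative came from 1455695_at, with 3.30 and 3.32 in NSCL61-sox11, against 3.59 and 3.48 in NSCL61, where the lines did not overlap. St8sia6, which acts mainly on glycans of proteins, stayed between 3.20 and 3.83 on 3 probe sets. Its largest difference, 0.28 (SE 0.12), came from 1456147_at, with 3.64 and 3.83 in NSCL61-sox11, against 3.52 and 3.39 in NSCL61. None of these 6 probe sets passed the filter or was called in the fit of all probe sets, where 10.1% of probe sets were called. At such levels the arrays do not show whether a transcript is present.

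Ncam1, the main carrier of polysialic acid, has 7 probe sets, and they did not give the same value. The 2 brightest were lower in NSCL61-sox11. On 1426864_a_at, Ncam1 had 8.44 and 8.45 in NSCL61-sox11, against 8.92 and 9.14 in NSCL61, a log2 difference of -0.59 (SE 0.10), or 1.50-fold lower. On 1426865_a_at it had 8.37 and 8.56 in NSCL61-sox11, against 8.90 and 9.02 in NSCL61, a difference of -0.49 (SE 0.10), or 1.41-fold lower. The lines did not overlap on either, and the annotation gives both the same source sequence. The calls were not stable: that of 1426864_a_at was lost without NSCL61 array 2 (difference -0.48). For 1426865_a_at it held only when NSCL61-sox11 array 2 was the array left out, with differences from -0.59 to -0.40 over the 4 omissions.

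The other 3 tested probe sets of Ncam1 were not called. On 1450437_a_at the values were 7.72 and 7.74 in NSCL61-sox11, against 7.82 and 7.98 in NSCL61, and the lines did not overlap (difference -0.17, SE 0.10). On 1450438_at they were 5.95 and 6.19 in NSCL61-sox11, against 6.18 and 6.17 in NSCL61, with overlap (difference -0.11, SE 0.12). On 1425126_at they were 6.20 and 6.52 in NSCL61-sox11, against 6.04 and 6.32 in NSCL61, with overlap and a difference in the other direction (0.18, SE 0.15), which became -0.23 with poly-A scaling and -0.04 with hybridisation control scaling. The mean of the 5 tested probe sets gave a difference of -0.24 (SE 0.10), which was not called. Ncam1 transcripts are spliced into several isoforms of NCAM, and the files do not say which of them each probe set detects.

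The 2 dim probe sets of Ncam1 were also lower in NSCL61-sox11. On 1439556_at the values were 4.05 and 3.82 in NSCL61-sox11, against 4.15 and 4.40 in NSCL61 (difference -0.34, SE 0.14). On 1421966_at they were 3.60 and 3.53 in NSCL61-sox11, against 3.61 and 3.82 in NSCL61 (difference -0.15, SE 0.12). Neither was called in the fit of all probe sets. The annotation gives 1421966_at, 1450437_a_at and 1450438_at the same source sequence, so the values of these 3 are not separate evidence either.

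Ncam2, a related adhesion molecule best known from olfactory axons, lay between 3.36 and 4.16 on its 3 probe sets and was not tested. Its differences ran from -0.06 to 0.20. The largest came from 1425301_at, with 3.56 and 3.75 in NSCL61-sox11, against 3.44 and 3.48 in NSCL61. Over all 23 probe sets of the 8 genes the arrays of the lines did not overlap on 12, with 10 lower and 2 higher in NSCL61-sox11. Of these 12, 6 lay below the filter. Among them, 1440029_at of St8sia3 was apart only by 3.741 in NSCL61-sox11 against 3.7415 in NSCL61. Among all non-control probe sets, 28.7% did not overlap and were lower and 23.4% did not overlap and were higher, so the absence of overlap alone is common with 2 arrays per line. The median difference was -0.07 over the 23 probe sets and -0.02 over all non-control probe sets.

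**Figure D3:**
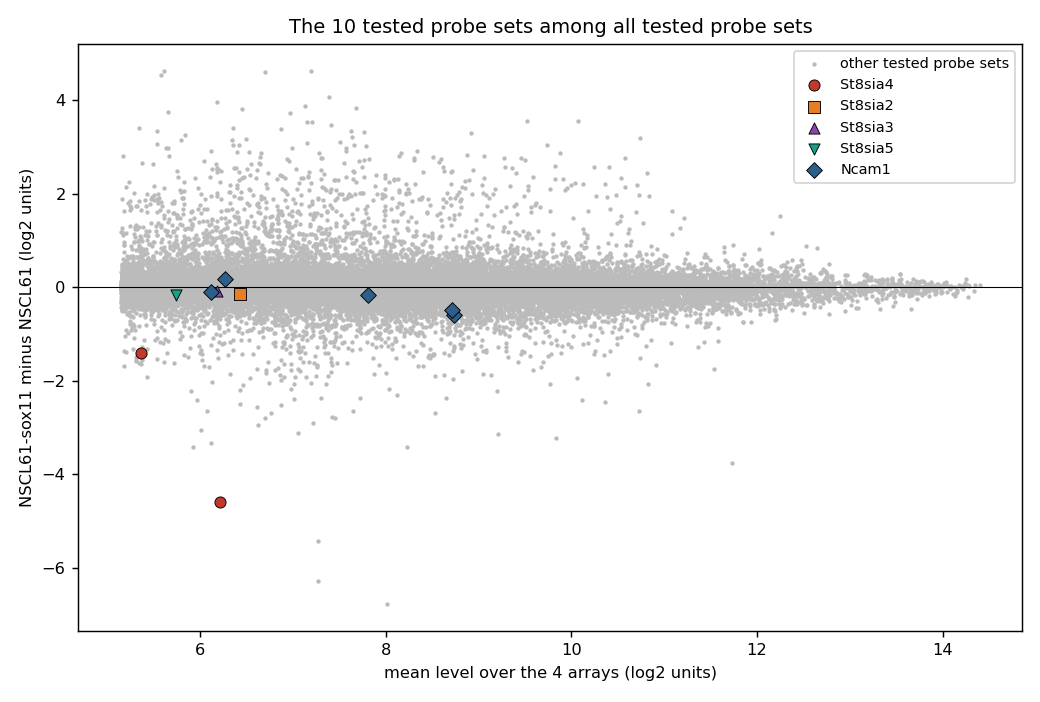
Difference between the lines, NSCL61-sox11 minus NSCL61 in log2 units, against the mean level over the 4 arrays in log2 units. Each grey point is 1 of the 27022 tested probe sets, and coloured symbols are the 10 of St8sia4, St8sia2, St8sia3, St8sia5 and Ncam1. The St8sia4 probe set with the higher mean is drawn at -4.60, a value that rests on NSCL61-sox11 levels below the filter, and the others of these genes lie in or at the edge of the cloud of points.

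The St8sia4 pattern over the 4 arrays was set beside those of 13084 genes, each represented by the brightest of its tested probe sets and centred on its own mean. The nearest by Euclidean distance were Hoxd8 (distance 1.16), Bex1 (1.28), Slc2a3 (1.44), Ociad2 (1.49) and Naalad2 (1.74), with log2 differences from -5.44 to -3.06. With 4 arrays in 2 lines this likeness says little more than that the difference was of similar size. Hoxd8 (4.61 and 4.48) and Naalad2 (4.44 and 4.53), the ends of that range, lay below 5.15 in NSCL61-sox11. Both passed the filter only through NSCL61, so the size of their differences is uncertain. The gene table's nearest measured genes beside St8sia4 are Fam174a, 4930440C22Rik and Pdcd1 on the one side and Slco4c1, Panct2 and Slco6b1 on the other. Fam174a, the only one of these above the filter, had 9.93 ± 0.06 in NSCL61-sox11 and 9.64 ± 0.06 in NSCL61 (SD, n = 2 each), a difference of 0.29 (limma adjusted p = 0.061). None of the other 5 was called in the fit of all probe sets.

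The genes that supply, transfer and remove sialic acid, and the partners of NCAM, were taken from lists that do not hold the 8 genes. Of 72 listed genes 49 were tested, of which 7 rose and 4 fell in NSCL61-sox11. That is 22.4% called, against 19.2% of all 13084 genes (10.0% higher and 9.19% lower), a share near the background. The median difference of the 49 was -0.0041 and that of all genes -0.02. With poly-A scaling 1 rose and 5 fell, and with hybridisation control scaling 5 rose and 8 fell.

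Among 8 genes of sialic acid synthesis and activation, all tested, 1 rose, 2 fell and 5 were not called, with a median of -0.07. Npl, whose enzyme cleaves sialic acid and so acts against the list's name, had 4.58 and 4.92 in NSCL61-sox11, against 7.20 and 7.61 in NSCL61. It fell 6.31-fold (log2 difference -2.66, SE 0.18, limma adjusted p = 0.00040), with NSCL61-sox11 below the filter level. Cmas, whose enzyme activates sialic acid for transfer, had 9.71 and 9.61 in NSCL61-sox11, against 10.32 and 10.25 in NSCL61, and fell 1.54-fold (limma adjusted p = 0.0046). Slc35a1, the Golgi transporter of activated sialic acid, had 9.13 and 9.07 in NSCL61-sox11, against 8.64 and 8.55 in NSCL61, and rose 1.42-fold (limma adjusted p = 0.012). Gne, the rate-limiting enzyme of sialic acid synthesis, averaged 7.72 ± 0.02 in NSCL61-sox11 and 7.43 ± 0.07 in NSCL61 (SD, n = 2 each) and was not called (limma adjusted p = 0.085).

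Of 14 sialyltransferase genes of the St3gal, St6gal and St6galnac families 10 were tested, of which 2 rose, none fell and 8 were not called, with a median of 0.14. St3gal5, which starts ganglioside synthesis from lactosylceramide, had 9.01 and 9.06 in NSCL61-sox11, against 8.18 and 8.36 in NSCL61, and rose 1.70-fold (limma adjusted p = 0.0049). Its other tested probe set rose 2.26-fold (limma adjusted p = 0.0046). St6galnac4, which sialylates glycans of proteins, had 8.14 and 8.10 in NSCL61-sox11, against 7.45 and 7.52 in NSCL61, and rose 1.55-fold (limma adjusted p = 0.0070). St3gal5 was also the only gene called among the 7 tested of 8 other genes of ganglioside synthesis, whose median was -0.07.

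Of 7 genes of sialidases and sialic acid turnover 5 were tested, of which 1 fell and 4 were not called, with a median of -0.16. This was Siae, which removes acetyl groups from sialic acid, with 8.01 and 8.17 in NSCL61-sox11, against 8.47 and 8.57 in NSCL61 (1.35-fold lower, limma adjusted p = 0.032). Of its other tested probe sets neither was called. Among 5 other proteins known to carry polysialic acid in some cells, 3 were tested and Nrp2 alone was called. Nrp2, a receptor of semaphorins and of vascular growth factors, had 9.15 and 9.03 in NSCL61-sox11, against 8.33 and 8.35 in NSCL61, and rose 1.68-fold (limma adjusted p = 0.0036). Its other 2 tested probe sets rose too, 1.98-fold and 1.66-fold (limma adjusted p = 0.0031 and 0.011).

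Of 15 binding partners and signalling genes of NCAM 13 were tested, of which 2 rose, 1 fell and 10 were not called, with a median of -0.0041. Fgfr2, a fibroblast growth factor receptor, had 7.47 and 7.58 in NSCL61-sox11, against 6.06 and 6.24 in NSCL61, and rose 2.60-fold (limma adjusted p = 0.00078). Gdnf, a neurotrophic factor for which NCAM serves as a receptor, had 5.84 and 5.61 in NSCL61-sox11, against 5.14 and 4.89 in NSCL61, and rose 1.63-fold (limma adjusted p = 0.018). With both NSCL61 levels below 5.15, Gdnf passed the filter only through NSCL61-sox11. Gfra1, its co-receptor, averaged 7.24 ± 0.53 in NSCL61-sox11 and 8.23 ± 0.48 in NSCL61 (SD, n = 2 each) and was not called (limma adjusted p = 0.071). Gap43, a growth cone protein, had 7.50 and 7.30 in NSCL61-sox11, against 8.15 and 8.43 in NSCL61, and fell 1.86-fold (limma adjusted p = 0.0074).

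Of 22 other neural adhesion molecules of the immunoglobulin superfamily 10 were tested, of which 1 rose and 9 were not called, with a median of -0.05. The 1 was Mcam, a cell surface glycoprotein of blood vessels and tumours, with 7.21 and 6.74 in NSCL61-sox11, against 5.96 and 5.65 in NSCL61 (2.26-fold, limma adjusted p = 0.0088). Some of these calls were lost when 1 array was left out. Such a fit leaves 1 array in that line, and the SE of each gene named next was wider. Without NSCL61 array 1 the calls of Cmas, Slc35a1, Siae and St6galnac4 were lost. Their log2 differences were then -0.59, 0.56, -0.48 and 0.60, against -0.63, 0.51, -0.44 and 0.63 with all arrays. Without NSCL61 array 2 the calls of Slc35a1 (0.47), Siae (-0.39), Gdnf (0.58, against 0.71) and Mcam (1.02, against 1.18) were lost. Without NSCL61-sox11 array 1 that of Siae (-0.36) was lost. With poly-A scaling no direction of a called gene turned, but Slc35a1, St3gal5, St6galnac4, Siae, Nrp2, Gdnf and Mcam were not called (adjusted p from 0.052 to 0.77), and with hybridisation control scaling Slc35a1 and St6galnac4 were not (0.23 and 0.082).

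**Figure D4:**
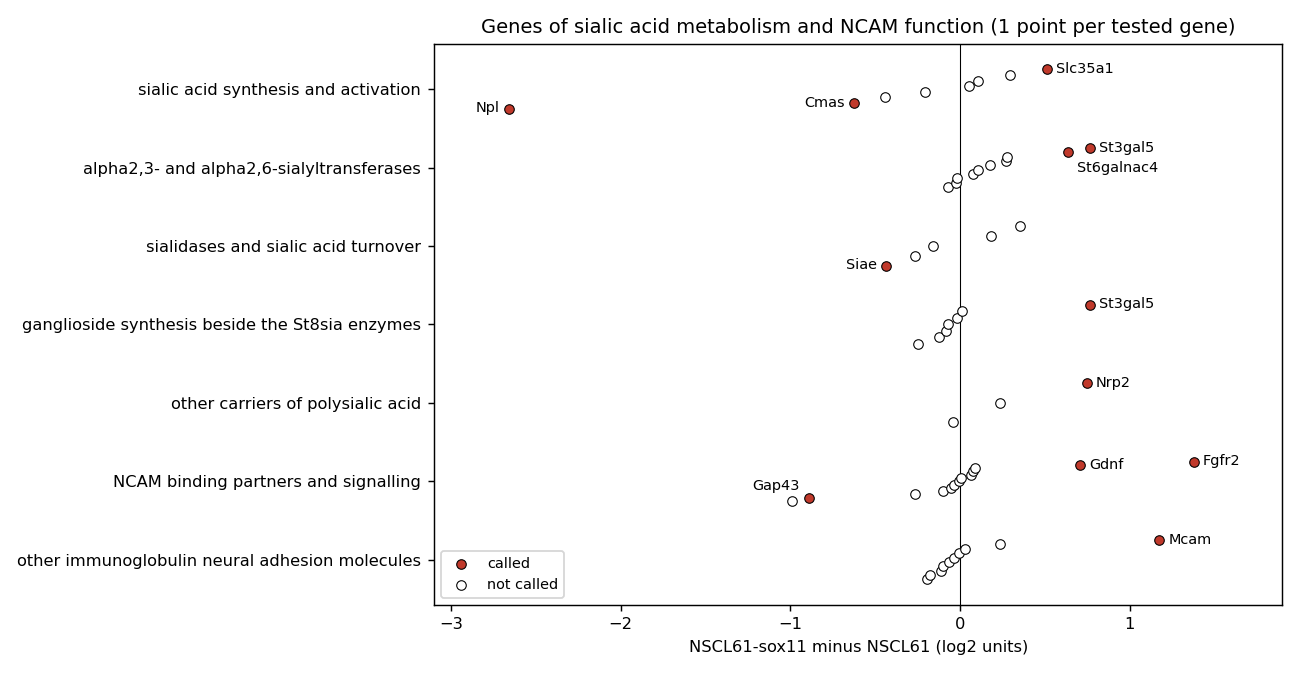
Difference between the lines, NSCL61-sox11 minus NSCL61 in log2 units, for the tested genes of 7 lists around sialic acid and NCAM. Each point is a gene by its brightest tested probe set, filled red where called, and genes in more than 1 list appear in each. Npl, at -2.66, lies farthest from 0, and Fgfr2, at 1.38, is the highest.

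Markers of the cell types the cultures could hold were compared as well. Of 8 neural stem and progenitor genes 6 were tested, of which Slc1a3 rose and Sox2, Pax6 and Vim fell, while Fabp7 and Olig2 lay below the filter. The summed level of the 6 was 19543 and 20698 in NSCL61-sox11, against 23501 and 24446 in NSCL61, on a linear scale. Vim, with log2 levels of 14.14 and 14.21 in NSCL61-sox11, against 14.36 and 14.40 in NSCL61, makes up most of it. Neuroblasts and young neurons are the cells best known for polysialylated NCAM. Of 10 of their genes 7 were tested and Cd24a (3.89-fold, limma adjusted p = 0.00010) and Tubb3 (2.82-fold, limma adjusted p = 0.0029) rose, while Dcx, Elavl4 and Map2 lay below the filter. The other 5 tested were not called, and the median difference of the 7 was 0.14. Their summed level, on a linear scale, was 4628 and 4104 in NSCL61-sox11, against 1599 and 1525 in NSCL61. Such a sum is weighted by each probe set's affinity, and Cd24a, with log2 levels of 11.91 and 11.72 in NSCL61-sox11, against 9.86 and 9.85 in NSCL61, makes up most of it. Pdgfra was the only riser among 3 tested of 4 genes of oligodendrocyte precursors, whose summed level was 1187 and 1356 in NSCL61-sox11, against 476.7 and 522.3 in NSCL61. The largest term of this sum on each array was Pdgfra itself. Cspg4 (difference -0.07) and Sox10 (-0.20) were not called, and the median difference of the 3 was -0.07. Of 6 genes of fibroblasts and meninges 5 were tested and Col1a1, Col1a2 and Pdgfrb rose, while Lum lay below the filter. Their summed level was 2793 and 5006 in NSCL61-sox11, against 989.8 and 1716 in NSCL61. Its largest term on each array was Col3a1, which was not called (limma adjusted p = 0.12). Of the 4 genes each of microglia and of endothelium, only Csf1r, Cdh5 and Kdr were above the filter, and none was called. Cdh5 had 5.24 and 5.50 in NSCL61-sox11, against 6.14 and 5.78 in NSCL61, a log2 difference of -0.59 (limma adjusted p = 0.053). It was called lower under quantile normalization, median centring, both control scalings, the replicate block and without NSCL61-sox11 array 2 (adjusted p from 0.00026 to 0.045). The calls of Pax6 and Vim were lost without either NSCL61 array (adjusted p from 0.13 to 0.21), that of Vim also without the intensity trend (0.16), and that of Pax6 also without NSCL61-sox11 array 1 (0.11). The other 2 Vim probe sets above the filter were not called (adjusted p = 0.18 and 0.29). With poly-A scaling Slc1a3, Pax6, Vim and Col1a2 were not called (adjusted p from 0.055 to 0.13). The part that these marker differences have in the St8sia4 and Ncam1 values was not tested.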

How the data were processed

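The authors' deposited values of 4 Affymetrix M430_2 arrays were taken as log2, a base inferred from their range of 2.13 to 14.62. RNA was labelled with biotin, per the labels' protocols. How probes were summarised and normalized is not stated there. Array means were 6.27 to 6.28, and the main fit used no further scaling. Such near-equal means do not show that the scale is right. The spike-in controls were on average higher in NSCL61-sox11, by 0.40 (poly-A) and 0.22 (hybridisation) log2 units. Gene symbols came from GEO's annotation of the platform, and those of all 8 genes matched the GRCm38.p6 gene table.

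NSCL61-sox11 was compared with NSCL61 by limma (version 3.58.1, R 4.3.3; lmFit, then eBayes with trend, tested two-sided) on 27022 of 45037 non-control probe sets, with Benjamini-Hochberg adjustment over all of them and calls under 0.05. Probe sets below the filter come from a fit of all. The design leaves 2 residual degrees of freedom, 6.36 after moderation. P-values reflect the spread of these arrays alone, possibly technical, and so few arrays limit the precision. The procedure was also run on simulated data drawn independently for each array. Those data lack the shared deviations of equally numbered arrays, so nothing is concluded from that run about these arrays. SE are moderated.

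Members and lists were chosen with earlier results of these data known. Named were all members, Sox11, up to 4 called genes with the largest change per list (the 2 brightest where none was called), the 5 genes nearest St8sia4 in pattern and its 3 measured neighbours on each side. Gne and Gfra1 were chosen after their values were seen. Alternatives were quantile normalization, median centring, both control scalings, other filters, no trend, the mean of a gene's probe sets, a block and leaving out each array. Figures were drawn with matplotlib 3.10.9.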

Additional observations from a re-analysis of the deposited data

How the results depend on the processing

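The 4 called probe sets of St8sia4 and Ncam1 were called, lower in NSCL61-sox11, under quantile normalization, median centring, both control scalings, no level filter and no intensity trend. As these genes were chosen from this comparison, and St8sia4 passed the filter only through NSCL61, nothing is read from the repeated calls. With the brightest 40% of probe sets 2 were called, since both St8sia4 probe sets then fell outside the filter. Leaving out 1 array at a time gave 1 to 4 called, the lowest without NSCL61 array 2, where the brighter St8sia4 probe set remained. The count over all probe sets was 2553 with poly-A scaling and 1639 to 4947 with 1 array left out. That of the sialic acid and NCAM partner genes was 6 with poly-A scaling and 7 to 14 with 1 array left out, the lowest without either NSCL61 array.

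The labels do not say that equal array numbers mark a shared culture or day. The deviations of equally numbered arrays from the mean of their line correlated at 0.41 over the tested probe sets, which are not independent replicates. With the array number as a replicate block 9227 probe sets, 4 of the 8 genes' probe sets and 20 partner genes were called, against 4678, 4 and 11 without it. The causes of these shifts were not tested.

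Kdr, which was not called, changed sign with poly-A scaling (-0.31), hybridisation control scaling (-0.12) and without NSCL61 array 2 (-0.087, where the omissions ranged up to 0.28), and Fam174a with poly-A scaling (-0.12). Fam174a was called higher with the replicate block (limma adjusted p = 0.0042), and not under the other alternatives run. With 2 arrays per line and no separate cultures stated, differences near the spread of single arrays cannot be resolved. The filter at 5.15 is a cut on brightness and not a limit of detection, and no detection call was made. Low levels, on either side of it, may not tell a low transcript from an absent one.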
